A study of Homo sapiens with 8 samples.

Results

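The difference between 2 EGF responses was followed gene by gene in HEK293, a line of human embryonic kidney cells: the change that 1 h with EGF made in cells labelled shELL, minus the change it made in control cells. It was taken over all 8 arrays of the series, in the 4 groups of 2 biological replicates that the design crosses, and over all 16145 genes that could be summarised. The groups were shELL cells given EGF at 50 ng/mL for 1 h, unstimulated shELL cells, control cells given the same EGF dose, and unstimulated control cells. All were grown in RPMI with fetal calf serum, and total RNA was hybridised to Affymetrix human exon arrays. The labels call the control cells wild type and the shELL cells a stable knockdown of ELL; they name no hairpin sequence, no control hairpin and no number of clones, so the line and the knockdown cannot be told apart.

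EGF binds its receptor tyrosine kinase, and the signal runs through RAS, RAF and MEK to the kinase ERK. ERK phosphorylates TCF factors bound with SRF at the promoters of immediate-early genes, whose RNA polymerase II is often held paused near the start and is released within minutes. ELL is an elongation factor: it speeds RNA polymerase II along the gene and works in the super elongation complex with P-TEFb, which is known to act on such genes. The design therefore asks whether the EGF response depends on ELL.

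A gene value is a gene's log2 level summarised from its probe sets, each of which is a handful of probes to a single exon or exon segment. A response is the mean gene value of the 2 EGF arrays minus that of the 2 unstimulated arrays of a line. The difference of responses is the response in shELL minus the response in control, so a value below 0 is a smaller response, or a larger decrease, in shELL. Levels were read against background, here 2.62 in log2 value, the 95th percentile of 42 olfactory receptor genes.

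The arrays differed in brightness. Deposited medians ran from 1.33 to 2.95, and replicate 1 of shELL with EGF had the lowest, with a correlation of 0.784 with its own replicate across genes, where the other groups had 0.911 to 0.954. Correlation is across genes, which are not independent replicates. ELL, the targeted gene, was at 3.86 and 2.65 in shELL with EGF, 2.93 and 2.63 in unstimulated shELL, 2.57 and 2.88 in control with EGF, and 2.54 and 2.50 in unstimulated control. The shELL arrays were thus not lower than control, most values lay close to background, so which line is which is known only from the labels. Its difference of responses was 0.26 (95% interval -1.04 to 1.56), but its sign turned: leaving out replicate 1 of shELL with EGF gave -0.35, and it was -0.60 on the values as deposited, where the median of all genes was -0.66.

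CCN2, deposited as CTGF, a secreted matricellular protein and target of the coactivator YAP, was the brightest gene among those with the clearest differences, and the promoter that drives it is shown with that of EGR1 because CCN2 had a large difference of responses and EGR1 a small one. Both are RefSeq sequences of GRCh38.p14, from 250 bases before the start of the gene to 50 after it, written 5′ to 3′ along the gene. Capitals mark GGAATG, the motif of TEAD factors that bring YAP to DNA, and the CArG box bound by SRF, each searched on both strands, as was the AP-1 motif TGACTCA, which neither window holds.
CCN2, chr6:131951323-131951622, minus strand: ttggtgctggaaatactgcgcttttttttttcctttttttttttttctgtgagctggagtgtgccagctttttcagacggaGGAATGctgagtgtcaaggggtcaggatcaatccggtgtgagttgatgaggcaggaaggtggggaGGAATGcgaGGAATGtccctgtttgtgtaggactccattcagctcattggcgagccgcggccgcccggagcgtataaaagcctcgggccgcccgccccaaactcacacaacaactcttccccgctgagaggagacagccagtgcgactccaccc
EGR1, chr5:138465229-138465528, plus strand: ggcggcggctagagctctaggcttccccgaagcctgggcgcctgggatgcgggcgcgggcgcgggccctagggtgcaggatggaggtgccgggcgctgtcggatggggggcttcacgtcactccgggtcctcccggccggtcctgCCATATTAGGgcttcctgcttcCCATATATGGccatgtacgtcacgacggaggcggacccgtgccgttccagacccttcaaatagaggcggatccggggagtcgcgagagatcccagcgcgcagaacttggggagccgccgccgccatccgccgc
The CCN2 window holds 3 GGAATG matches and the EGR1 window 2 CArG boxes. Windows of SPRY4 and SMAGP, which also had large differences, were searched in the same way. That of SPRY4 holds 1 GGAATG match, and both windows of SMAGP hold none of these motifs. Of 35116 such windows in the table, 14% hold GGAATG, 4.95% the AP-1 motif and 1.29% a CArG box. A match is a description of letters, not evidence of a bound site.

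Over all genes, no difference of responses passed. With limma and Benjamini-Hochberg adjustment 0 of 16145 genes were called (0%), the smallest adjusted p was 1.00, and 280 genes (1.73%) reached an unadjusted p under 0.05; 5% of the genes tested would be 807. Of the 280, 73 had a difference above 0 (0.452% of all genes) and 207 below (1.28%). The median difference over all genes was -0.07 and the SD 0.48. The median SE was 0.51, at which a difference has to reach 1.15 in log2 value for an unadjusted p of 0.05. The low-p counts moved with single arrays: leaving out replicate 2 of shELL with EGF gave 1454 such genes, leaving out replicate 1 of that group 879, and the count was 114 without replicate 2 of unstimulated control.

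**Figure D1:**
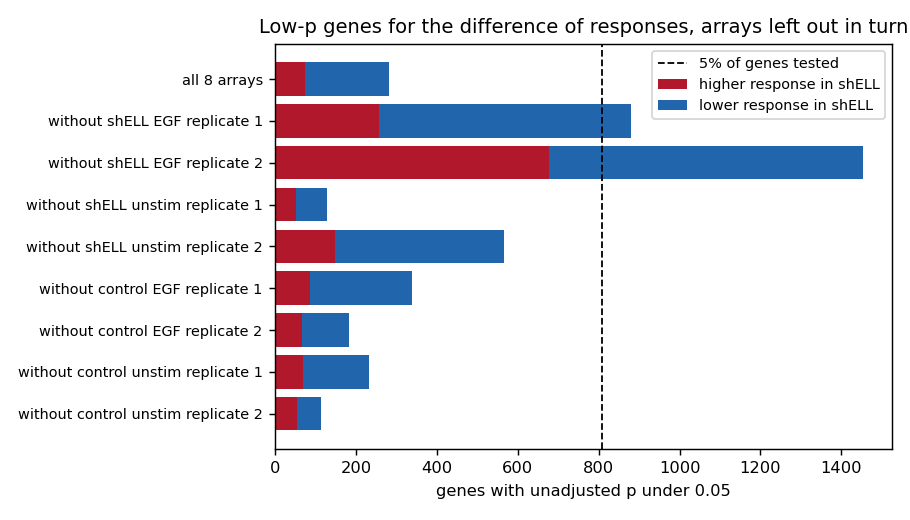
Number of genes with an unadjusted limma p under 0.05 for the difference of responses (horizontal axis), with all 8 arrays and with each array left out; red is a difference above 0, blue below 0, and the dashed line is 5% of the genes tested. The count is 280 with all arrays, and reaches 879 and 1454 when either array of shELL with EGF is left out; no gene passes after adjustment in any row.

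CCN2 (chromosome 6, 132269390 to 132272351 in the deposited annotation, on a build not given in the sources used here) was at 7.43 and 7.91 in shELL with EGF and 6.27 and 6.48 in unstimulated shELL, against 7.01 and 7.55 in control with EGF and 3.35 and 4.49 in unstimulated control. The EGF arrays of both lines lay close together and overlapped, while the unstimulated shELL arrays stood well above the unstimulated control arrays. The response was 1.29 in shELL and 3.36 in control, and the difference -2.07 (SE 0.59, 95% interval -3.41 to -0.73), which did not pass over all genes with limma (adjusted p = 1.00). All 10 probe sets of CCN2 had differences below 0, and the 5 nearest the start had a median of -1.16 and the 5 nearest the end -2.41. With each array left out in turn the gene difference ran from -2.64 to -1.50, and on the values as deposited it was -3.53, where the median of all genes was -0.66.

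CCN1, deposited as CYR61, a close relative of CCN2 that is also secreted and driven by YAP and SRF, had the same arrangement of groups. It was at 5.36 and 6.75 in shELL with EGF and 4.59 and 4.92 in unstimulated shELL, against 5.08 and 5.81 in control with EGF and 2.85 and 3.26 in unstimulated control. The difference was -1.09 (SE 0.67, 95% interval -2.61 to 0.42, limma adjusted p = 1.00), with all 8 probe sets below 0. Leaving out replicate 1 of shELL with EGF gave -0.40 and leaving out its replicate 2 gave -1.79, so its size depended on which of these arrays was used, and it was -2.14 on the values as deposited.

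NR4A2, an orphan nuclear receptor of the immediate-early class, and SPRY4, a Sprouty inhibitor of receptor signalling, had another arrangement. NR4A2 was at 1.81 and 2.08 in shELL with EGF and 1.46 and 1.30 in unstimulated shELL, against 3.93 and 3.47 in control with EGF and 1.93 and 1.60 in unstimulated control. Only the control EGF arrays lay above background, and the responses were 0.57 in shELL and 1.93 in control. The difference was -1.36 (SE 0.43, 95% interval -2.34 to -0.37, limma adjusted p = 1.00), and 10 of 13 probe sets were below 0. The 6 probe sets nearest the start had a median of -1.21 and the 7 nearest the end -0.10. With the median of probe sets the gene difference was -0.58. With array median centring it was -0.73, where the median of all genes was -0.43.

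SPRY4 was at 1.56 and 2.51 in shELL with EGF and 1.73 and 1.10 in unstimulated shELL, against 4.04 and 3.08 in control with EGF and 1.18 and 1.71 in unstimulated control. Again only the control EGF arrays were above background. The difference was -1.49 (SE 0.65, 95% interval -2.96 to -0.02, limma adjusted p = 1.00), and all 6 probe sets were below 0. A gene value below background bounds a level poorly, so these differences are not given as folds.

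EGR1, a zinc finger transcription factor and the gene of largest response in both lines, was at 7.14 and 7.91 in shELL with EGF and 4.14 and 4.05 in unstimulated shELL, against 7.69 and 7.57 in control with EGF and 4.0 and 3.80 in unstimulated control. The EGF arrays overlapped between the lines. The difference was -0.30 (95% interval -1.35 to 0.75, limma adjusted p = 1.00), with 7 of 16 probe sets below 0. Leaving out replicate 1 of shELL with EGF gave 0.09, and it was -1.32 on the values as deposited. The width of the interval means that equal responses were not shown.

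**Figure D2:**
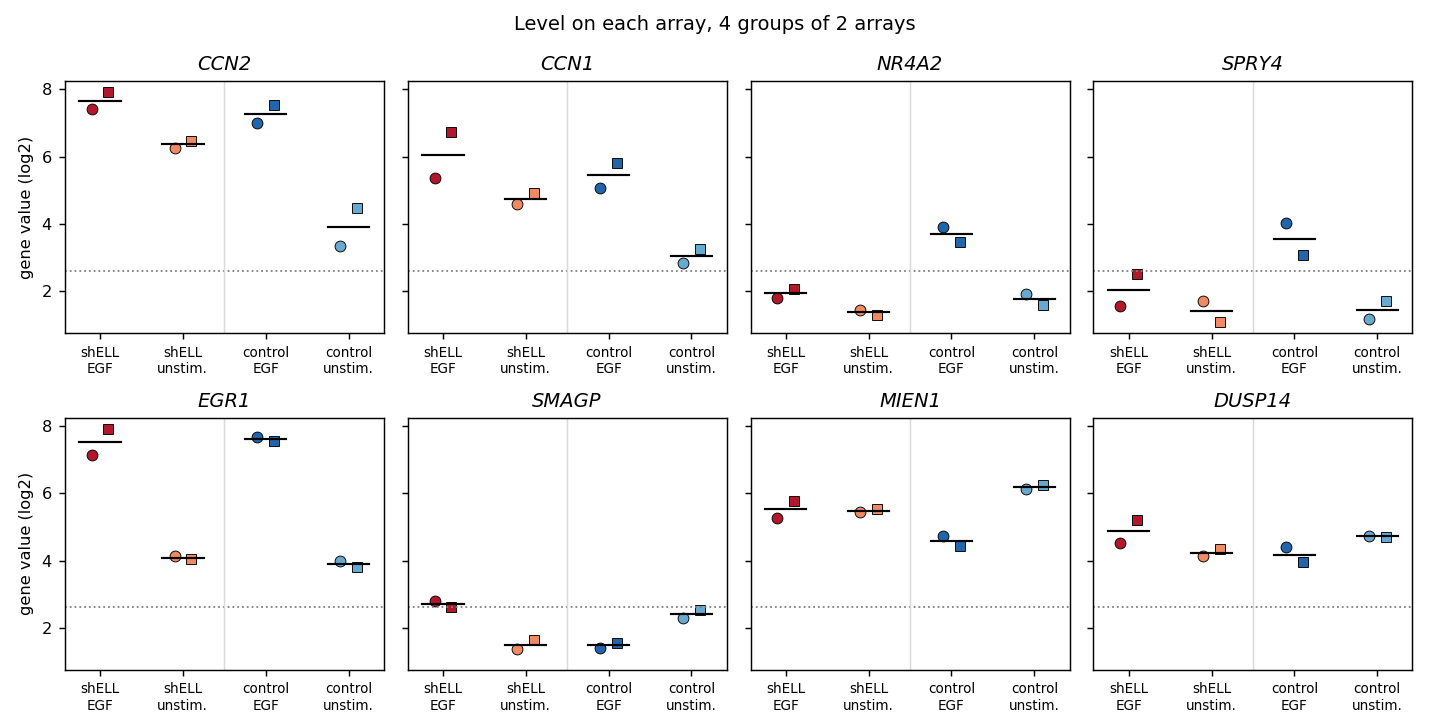
Gene value (log2, vertical axis) on each array for 8 genes; circles are replicate 1, squares replicate 2, bars group means, and the dotted line is background at 2.62. CCN2 and CCN1 are set apart by their unstimulated arrays, NR4A2 and SPRY4 by the control EGF arrays, and EGR1 has similar values in both lines.

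Immediate-early transcription factors had differences mostly below 0. All 30 members of the list were measured, 27 of them above background in at least 1 group, and 22 were below 0 and 8 above, with a median of -0.26. Over all genes 56% were below 0 and the median was -0.07. At an unadjusted p under 0.05, 1 member was below 0 (NR4A2) and 0 above, and 0 were called. On the values as deposited, where the median of all genes was -0.66, the list median was -0.97, and with array median centring it was -0.69 against -0.43; in each of the 3 scalings 21 of 30 members lay below the median of all genes. With 1 array left out the list median ran from -0.33 to -0.13, the smallest shift being without replicate 2 of unstimulated control, where the median of all genes was -0.03.

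Among them EGR2, a relative of EGR1, was at 2.63 and 3.74 in shELL with EGF and 1.84 and 2.15 in unstimulated shELL, against 4.0 and 3.43 in control with EGF and 1.45 and 1.40 in unstimulated control. Its difference was -1.10 (95% interval -2.40 to 0.19), -0.55 with replicate 1 of shELL with EGF left out and -1.66 with its replicate 2 left out. KLF6, a Kruppel-like factor, had a difference of -0.84. NAB2, a corepressor of EGR factors, was not above background in any group; its value of -1.07 was -0.48 without replicate 1 of shELL with EGF. The AP-1 subunits had values on both sides of 0: FOSB had -0.69, FOS -0.49, JUN -0.22 and FOSL1 -0.20, while JUNB had 0.81, JUND 0.10 and FOSL2 0.04. FOSL1 was not above background in any group. With 1 array left out FOSB ran from -1.48 to 0.10, FOSL1 from -0.66 to 0.27, JUND from -0.28 to 0.48 and FOSL2 from -0.45 to 0.53, so their signs are not settled, while FOS, at -0.85 to -0.12, JUN, at -0.38 to -0.06, and JUNB, at 0.65 to 0.98, kept theirs. JUN had 0.29 with the median of probe sets. JUNB was at 2.94 and 2.68 in shELL with EGF and 2.14 and 2.02 in unstimulated shELL, against 2.21 and 2.13 in control with EGF and 2.42 and 2.10 in unstimulated control. Both shELL EGF arrays of JUNB stood above every other array, by values that barely clear background. ATF3, a stress-induced factor, had -0.11 and MYC, a driver of growth, -0.58; with 1 array left out ATF3 ran from -0.37 to 0.16, and MYC had -0.17 without replicate 2 of control with EGF.

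Intervals show how little the other members were resolved. The 95% interval for IER2, a nuclear protein of the early response, was -1.82 to 0.89 and that for JUN -1.13 to 0.69. ATF3 had -1.09 to 0.88. Each of these intervals holds both 0 and a difference of -1 in log2 value.

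**Figure D3:**
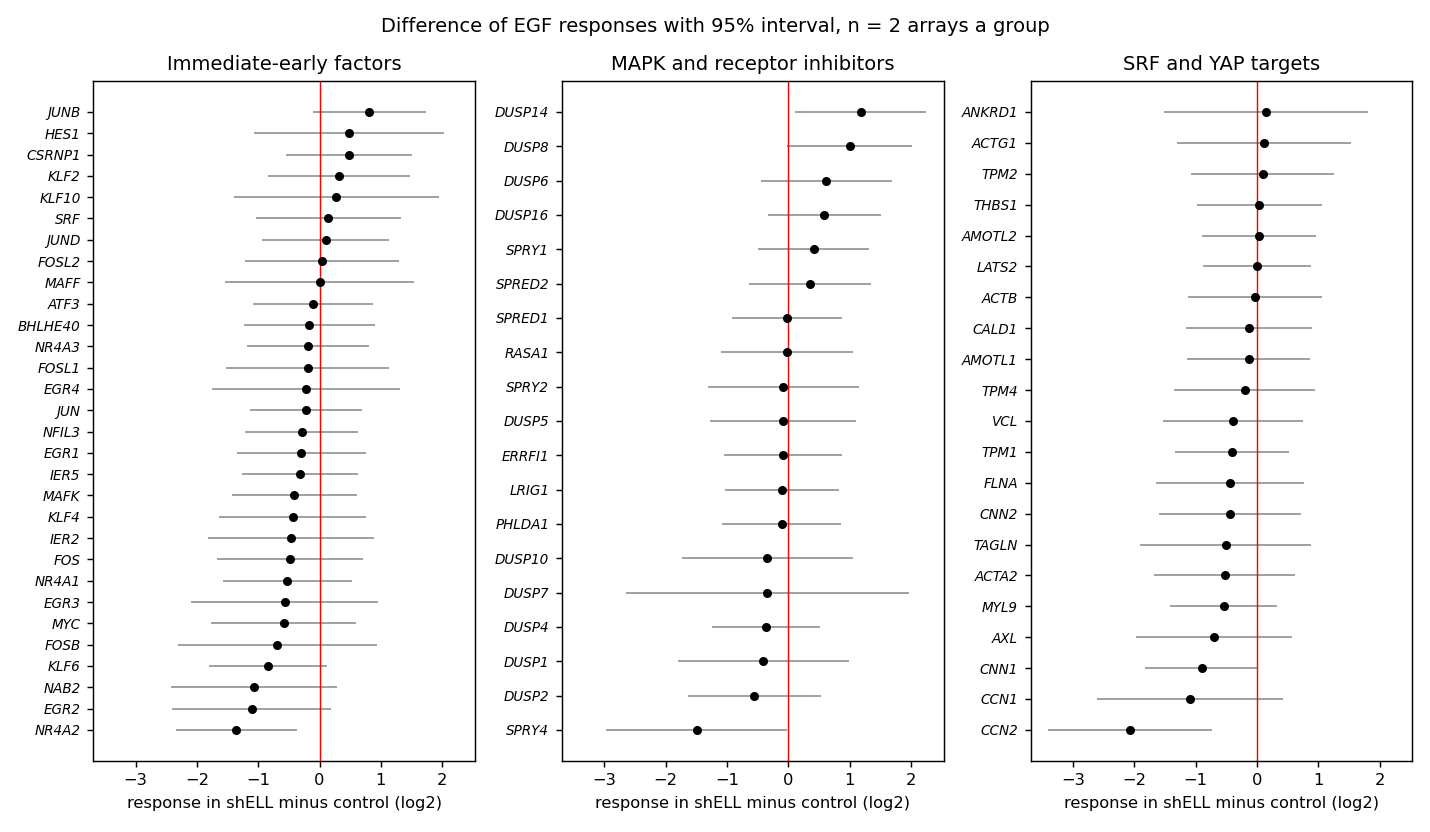
Difference of EGF responses, shELL minus control, in log2 value (horizontal axis) for the measured members of 3 lists, 1 of them left out, with the 95% interval of the limma fit over 8 arrays; the red line is 0. The intervals of CCN2, NR4A2, SPRY4 and DUSP14 exclude 0 before adjustment, and those of the other members drawn include it.

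Inhibitors of MAP kinases and receptors split by gene. Of the 19 measured, 13 were below 0 and 6 above, with a median of -0.08; at an unadjusted p under 0.05, 1 was below 0 (SPRY4) and 1 above (DUSP14), and 0 were called. Relative to the median of all genes the list median was -0.02 after quantile normalization, but 0.14 on the values as deposited and 0.13 with array median centring, so the direction of the list turned with the scaling. DUSP14, a small phosphatase, was at 4.54 and 5.22 in shELL with EGF and 4.13 and 4.35 in unstimulated shELL, against 4.40 and 3.96 in control with EGF and 4.75 and 4.71 in unstimulated control. Its response was 0.64 in shELL and -0.54 in control, a difference of 1.18 (SE 0.47, 95% interval 0.12 to 2.25, limma adjusted p = 1.00), with 4 of 7 probe sets above 0. The 3 probe sets nearest the start had a median of -1.23 and the 4 nearest the end 1.75, so the parts of the gene did not go the same way. The gene difference was 0.55 on the values as deposited and 0.29 with the mean of probe sets.

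DUSP8, a phosphatase of JNK and p38, had a difference of 1.00 (95% interval -0.02 to 2.02), with 11 of 14 probe sets above 0, and 0.23 on the values as deposited. DUSP1, the nuclear phosphatase and classical EGF target, had -0.41, with 6 of 7 probe sets below 0, and 0.27 without replicate 1 of shELL with EGF. DUSP5, the nuclear phosphatase of ERK, had -0.08 and ERRFI1, which blocks the EGF receptor, -0.09, and both turned sign with 1 array left out (-0.50 to 0.33 and -0.36 to 0.18). A count of genes whose array pairs did not overlap used the 4 responses that 2 by 2 arrays give in each line. It found 6 of 19 inhibitors, with DUSP6, DUSP8, DUSP14, DUSP16 and SPRY1 above 0 and DUSP4 below, where 10.2% of all genes had such a separation. DUSP6 and DUSP4 were not above background in any group. In the immediate-early list 4 of 30 and in the SRF and YAP list 3 of 22 did.

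SRF and YAP targets, many of them actin-binding proteins, had 15 of 22 members below 0 and 7 above, with a median of -0.29. CCN2 alone reached an unadjusted p under 0.05, and 0 were called. The median lay below that of all genes by 0.23 after quantile normalization, by 0.41 as deposited and by 0.44 with array median centring, with 14, 18 and 19 of 22 members below it. Summarised by the median of probe sets the list median was -0.06, close to the -0.05 of all genes, and without replicate 2 of unstimulated shELL it was -0.07 against -0.10. The receptor kinase AXL had -0.70, but -0.30 without replicate 2 of shELL with EGF; filamin FLNA had -0.44, but -0.02 without replicate 1 of that group; and MYL9, a myosin light chain, had -0.55, but -0.08 with the median of probe sets. CNN1, a calponin, was not above background in any group; its value of -0.90 was 0.10 with probe sets at or above the median. The secreted protein THBS1 had 0.04 (95% interval -0.98 to 1.06). ANKRD1, an ankyrin repeat protein, had 0.15 (95% interval -1.51 to 1.81), and 1.01 and -0.71 without replicate 1 and without replicate 2 of shELL with EGF. ACTB, cytoplasmic actin, had -0.03, with a 95% interval of -1.12 to 1.06, and -1.85 on the values as deposited.

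**Figure D4:**
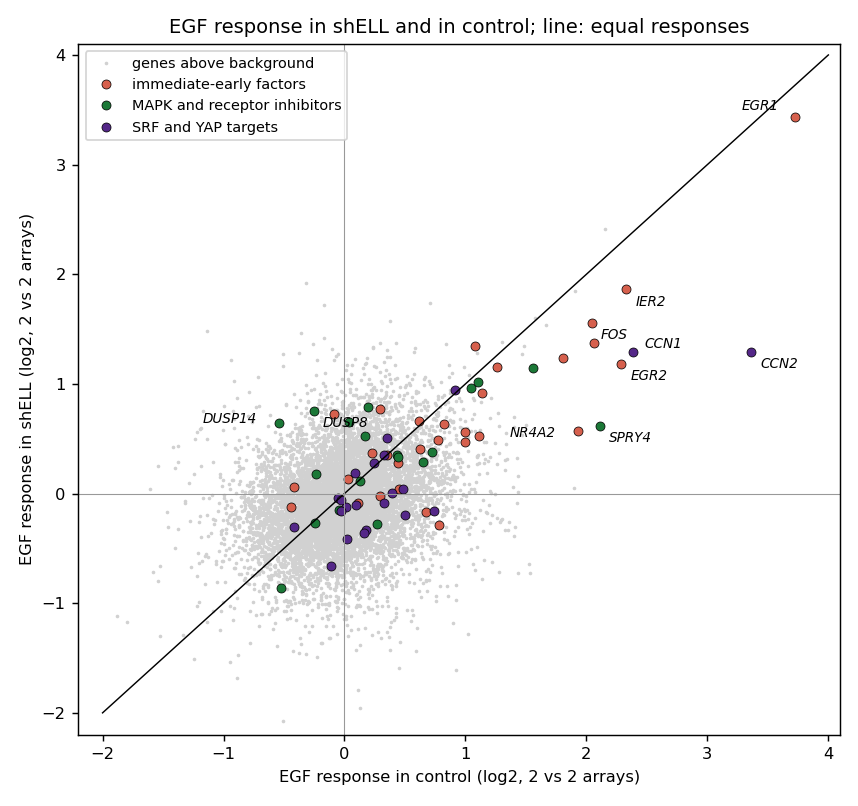
EGF response in shELL (vertical axis) against EGF response in control (horizontal axis), both in log2 value, each from 2 against 2 arrays; grey points are genes above background, coloured points are members of 3 lists, and the diagonal marks equal responses. CCN2, SPRY4 and NR4A2 lie well below the diagonal, EGR1 close to it, and DUSP14 and DUSP8 above it.

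Genes of mRNA decay, growth arrest and survival had 14 of 18 members below 0, with a median of -0.24 and 0 past an unadjusted p of 0.05. That median was -0.09 without replicate 1 of shELL with EGF, no lower than the -0.11 of all genes, and -0.08 against -0.05 with the median of probe sets. TRIB1, a pseudokinase, had -0.70, but -0.12 with the median of probe sets; ZFP36L1, an mRNA decay factor, had -0.61, but -0.13 without replicate 1 of shELL with EGF. Chosen after values were seen, because their responses were large, ZFP36 had 0.02, MCL1 0.03 and GADD45B -0.20. PTGS2, the inducible cyclooxygenase, chosen in the same way, had a response of 2.42 in shELL and 2.16 in control and a difference of 0.26 (95% interval -1.06 to 1.58). NF-kB targets and cytokines as a list had a median of -0.03 with 9 of 17 below 0, and -0.27 to 0.16 with 1 array left out; NFKBIA, the inhibitor of NF-kB, had -0.93 and the chemokine CCL2 -1.12, from 3 probe sets.

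The 50 genes above background with the largest response averaged over both lines were set beside these lists, a choice made after values were seen. The average and the difference of responses are orthogonal contrasts of the 8 arrays, but uncorrelated only where the groups vary alike. The replicates of shELL with EGF were the least alike (correlation 0.784 across genes), so the choice of the 50 is not neutral to the difference. Their mean responses ran from 0.93 to 3.58. Of the 50, 35 had a difference below 0 and 15 above, with a median of -0.19, where 53.3% of the 9800 genes above background were below 0 and their median was -0.04. Of the 50, 3 reached an unadjusted p under 0.05, all below 0: CCN2, NR4A2 and SPRY4. NR4A2 and SPRY4 entered the 50 only through control EGF, where alone they were above background, which favours a value below 0, and 20 of the 50 are members of the lists above, so the set is no separate support for them. Of the 50 genes with the most negative mean response, 27 were below 0.

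The upstream machinery was not resolved. EGF receptors and ligands had 7 of 11 below 0 and a median of -0.09, adaptors and kinases from the receptor to RSK 8 of 22 and 0.05, and SRF partner factors 3 of 6 and 0.06, with 0 members of any past an unadjusted p of 0.05. With 1 array left out these medians ran from -0.31 to 0.19, from -0.23 to 0.31 and from -0.10 to 0.27, each on both sides of 0. HBEGF, a ligand of the EGF receptor, was at 4.15 and 4.03 in shELL with EGF and 3.49 and 3.31 in unstimulated shELL, against 3.32 and 2.72 in control with EGF and 2.75 and 2.75 in unstimulated control. Its difference was 0.43 (95% interval -0.55 to 1.41). The adaptor GRB2 had 0.61, but -0.33 on the values as deposited, and GAB1, a docking protein, had -0.59, but -0.32 without replicate 1 of unstimulated control.

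Elongation factors had list medians whose sign was not settled. ELL and EAF proteins with the super elongation complex had 7 of 14 below 0 and a median of -0.03, pausing factors and P-TEFb regulators 4 of 17 and 0.16, and the little elongation complex with Integrator and MED26 10 of 17 and -0.15. None of their members reached an unadjusted p under 0.05. With 1 array left out these medians ran from -0.22 to 0.18, from -0.15 to 0.51 and from -0.48 to 0.22, the upper end in each list coming from the fit that lacks replicate 1 of shELL with EGF; the median of all genes was then -0.11. NELFA, a subunit of the negative elongation factor, had 0.89 (95% interval -0.09 to 1.88), and 0.15 on the values as deposited. SUPT4H1, a subunit of the pausing factor DSIF, had -1.03 (95% interval -2.36 to 0.30), and -0.50 without replicate 1 of shELL with EGF. MED26, the Mediator subunit that binds elongation factors, was at 3.16 and 3.22 in shELL with EGF and 3.25 and 3.09 in unstimulated shELL, against 3.53 and 3.90 in control with EGF and 3.18 and 2.74 in unstimulated control. Its difference was -0.74 (95% interval -1.70 to 0.23). CCNT2, a cyclin of P-TEFb, had 0.72, with 0.05 to 1.39 when 1 array was left out, and ELL2, the paralogue of ELL and chosen after values were seen, 0.03.

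Position within a gene was read because an elongation factor is the target. Over 15120 genes with at least 4 probe sets, the difference of responses had a median of -0.07 in the probe sets nearer the start and -0.05 in those nearer the end, and was lower toward the end in 48.4% of genes. Among immediate-early factors it was lower toward the end in 15 of 30. In 5 equal bins of genomic span, up to a span of 2354520 bases, the median ran from -0.08 in the shortest genes to -0.07 in the longest, and the SD from 0.58 to 0.42. The bin of shortest genes had a median of 6 probe sets a gene and that of the longest 16, so span and the number of probe sets moved together and their parts in that spread were not tested.

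Among genes above background, those with the smallest p were mostly dim and measured by few probe sets. The 12 with the smallest p above 0 and the 12 below 0, all above background in at least 1 group, had differences of 1.50 to 2.62 and -2.26 to -1.47 in log2 value. Some passed that filter only through the group where they were high. SMAGP, ANXA2P1, LY6D and DLEU1 were above background only in shELL with EGF. NUDCD2, HBE1, REG3A and MPHOSPH10 were above it only in control with EGF, and ZNRD2 only in unstimulated shELL. That favours a large difference, so passing the filter is no support for it. Of these 24, 13 had no group mean more than 1 above background, 3 had one over 4 in log2 value, and 17 rested on at most 5 probe sets. Every one of the 12 above 0 had a response above 0 in shELL and below 0 in control, and 11 of the 12 below 0 the opposite, CCN2 being the exception; among all genes above background 38.1% had responses of opposite sign. Since a difference is large where responses have opposite signs, these counts describe the selection and are not a result of their own.

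SMAGP, a small transmembrane protein of cell junctions (chromosome 12, 51639140 to 51663935 as deposited), had the smallest p among genes above background. It was at 2.81 and 2.63 in shELL with EGF and 1.37 and 1.64 in unstimulated shELL, against 1.40 and 1.57 in control with EGF and 2.30 and 2.54 in unstimulated control. The groups did not overlap within either line, but all levels were near or below background. The difference was 2.15 (SE 0.40, 95% interval 1.23 to 3.07, limma adjusted p = 1.00), with all 8 probe sets above 0. It was 1.15 on the values as deposited and 1.22 with probe sets at or above the median.

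MIEN1, deposited as C17orf37, a membrane-anchored protein encoded next to ERBB2, was the brightest of the 12 above 0. It was at 5.28 and 5.79 in shELL with EGF and 5.44 and 5.54 in unstimulated shELL, against 4.73 and 4.45 in control with EGF and 6.15 and 6.25 in unstimulated control. The shELL arrays were alike with and without EGF, and the control arrays were lower with it. The difference was 1.65 (SE 0.43, 95% interval 0.68 to 2.62, limma adjusted p = 1.00), with 3 of 5 probe sets above 0. On the values as deposited it was 0.87.

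Others above 0 were MTHFS, an enzyme of folate metabolism, at 1.74, UBTD1, a ubiquitin-domain protein, at 1.68, and C6orf62, a gene of little-known function, at 1.92. PCDHGC4, a protocadherin, at 1.79 and the pseudogene ANXA2P1 at 1.66 belong to near-identical or exon-sharing families, so their probe sets may not tell members apart; with no filter on probe sets PCDHGC4 had -0.08 and ANXA2P1 0.28. Below 0 were ZNRD2, deposited as SSSCA1, at -2.05, NUDCD2, a co-chaperone of the dynein system, at -1.91, MPHOSPH10, a factor of ribosome assembly, at -1.73, and CHRNB2, a nicotinic receptor subunit, at -1.47. HBE1, an embryonic globin, had -2.26 and RHAG, an erythroid membrane protein, -1.77, both from 3 probe sets, and with no filter on probe sets these were -0.89 and -0.50.

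Housekeeping and stress lists moved with the scaling or with single arrays. Heat shock chaperones had a median of 0.03 and glycolysis genes 0.09, but on the values as deposited they lay 0.49 and 0.41 below the median of all genes. Cholesterol synthesis genes had -0.17, mitosis genes -0.07 and DNA replication genes 0.13. Each of the medians of these lists lay on both sides of 0 when arrays were left out in turn, from -0.52 to 0.59 for heat shock chaperones and from -0.25 to 0.58 for DNA replication genes. HSPA1A had 0.71 and HSPA1B -0.93, although these inducible HSP70 genes are nearly identical in sequence, so neither value can be assigned to 1 gene with confidence. GAPDH, a glycolytic enzyme, was at 6.61 and 8.72 in shELL with EGF, 6.64 and 8.23 in unstimulated shELL, 7.48 and 6.85 in control with EGF, and 8.03 and 9.10 in unstimulated control. The replicates of each shELL group lay far apart and the control EGF arrays lay below the unstimulated ones. Its difference was 1.63 (95% interval -0.73 to 4.0), and 2.69 without replicate 1 of shELL with EGF.

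The identity of the cells was read from markers. Genes known to be abundant in HEK293 cells averaged 3.63 to 3.81 per array in shELL with EGF, 3.80 to 3.91 in unstimulated shELL, 3.76 to 3.82 in control with EGF and 3.80 to 3.92 in unstimulated control, with 13 of 15 above background and a median difference of responses of -0.15. Fibroblast markers averaged 1.79 to 2.49, 1.80 to 2.04, 2.02 to 2.06 and 1.53 to 1.89 in the same groups, and 2 of 13 were above background. Their median difference was -0.05, and 0 of 13 reached an unadjusted p under 0.05. Keratinizing epithelium markers averaged 2.58 to 2.92, 2.56 to 2.89, 2.27 to 2.59 and 2.36 to 2.43, with 5 of 11 above background and a median of -0.18. Leukocyte markers averaged 2.19 to 2.54, 2.15 to 2.42, 2.24 to 2.46 and 2.12 to 2.38, with 3 of 11 above background, a median of -0.22, and PTPRC, their defining member, below it in every group. With arrays left out in turn each of these marker medians lay on both sides of 0. The part of these lists in the differences was not tested. In RNA from whole cultures, fewer cells of a kind and less RNA per cell cannot be told apart.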

How the data were processed

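Total RNA from 4 groups of 2 arrays was measured on Affymetrix human exon arrays. The authors deposited log2 values of 287329 probe sets, which per the submitters' processing notes come from Affymetrix Expression Console and RMA, versions not given in the sources used here. The authors' deposited group means lay within 5e-05 of the array means. Array medians differed, so the arrays were quantile-normalized. Probe sets with 1 symbol (280649) and a mean at or above the 25th percentile were kept, and genes with at least 3 were reduced to gene values by median polish (10 iterations at most), giving 16145 genes from 209106 probe sets. Symbols were matched to RefSeq: 14133 were current, 1732 a synonym of 1 gene, 24 kept because the current name was taken, and 256 unmatched.

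limma 3.58.1 in R 4.3.3 fitted the 4 group means with 4 residual degrees of freedom, and the interaction was tested two-sided with Benjamini-Hochberg adjustment at 0.05. The number of arrays limits the precision. The procedure was tested on simulated data with independent arrays and the same SD of a gene in every group. The real arrays deviated together and their groups spread unequally, so that test does not show how the procedure behaves on them. Genes named were the 12 of smallest p on each side above background, ELL, EGR1, CCN2, members of 3 early-response lists, and of each of 17 other lists up to 4 members of smallest p, a selection of which is printed; 1 gene is not reported here. Members and lists were chosen with earlier results of these data known. Lists are described by counts and medians, without a test. Replicate numbers were not taken as pairs, since the correlation of same-numbered deviations was not positive for every pair of groups. Alternatives covered scaling, filters, summary, variance model, array weights, the replicate block and each array left out. Python 3.11.15 with matplotlib 3.10.9 drew the figures.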

Additional observations from a re-analysis of the deposited data

How the results depend on the processing

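No gene passed after adjustment with limma under any of 21 other settings. The number at an unadjusted p under 0.05, 280 with 73 above 0 and 207 below, ran from 114 to 1454 with 1 array left out, the ends being without replicate 2 of unstimulated control and without replicate 2 of shELL with EGF. In these fits the array left alone in its group was assumed to vary like the other groups. It was 75 on the values as deposited (0 above and 75 below 0), 179 among genes above the olfactory receptor level and 177 with the mean of probe sets; with array median centring it was 344, with 10 above and 334 below 0. Chosen after seeing the data, a crossed replicate block with the control EGF numbers turned gave 649, and 7692 of 215497 probe sets reached it in place of genes. The replicate block gave 341 genes and changed no call. Same-numbered arrays deviated together among shELL with EGF, unstimulated shELL and unstimulated control (correlation 0.37 to 0.51) and opposite to control EGF (-0.31 to -0.16). Turning the control EGF numbers, as in the crossed block, makes all of them positive, a pattern of the data and not of the design. Deposited medians of replicates 1 and 2 were 1.33 and 2.70 in shELL with EGF, 1.93 and 2.95 in unstimulated shELL, and 1.83 and 2.44 in unstimulated control. Only in control with EGF was replicate 1 the brighter, at 2.07 against 1.77. Whether brightness or numbering lies behind the signs was not tested. The cause of the changes in the counts was not tested, except that fewer arrays or genes entered some fits.

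Of the values of single genes under these settings 2945 kept their direction, uncalled, and 247 changed it. Of list medians 282 stayed within the spread between replicates in the same direction, and 118 moved by more or across 0. The variance models, array weights, replicate block and crossed block cannot change a difference, because they leave the group means as they are. Genes kept above the olfactory receptor level also keep their values. The kept counts thus include cases that could not move, and they overstate stability. Dim genes are limited by signal: from olfactory receptor median to 75th percentile the arrays spanned 1.23 (shELL with EGF, replicate 1) to 4.44 (unstimulated shELL, replicate 2).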
